A study of Mus musculus with 6 samples.

Results

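Oxidative phosphorylation subunits are the protein parts of the 5 mitochondrial complexes that oxidise NADH and succinate and make ATP. A fixed list of 50 mouse genes for such subunits was taken, and each gene was found by its RefSeq identifiers among the 23290 entries of the authors' table, 1 entry a gene. Complex I gave 20 genes, complex II 4, complex III 9, complex IV 10 and complex V 7. Of the 50, 48 carried a tested value.

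The hearts came from C57BL/6 mouse embryos at E10.5, and both groups carried at least 1 floxed allele of Casz1, which encodes a zinc finger transcription factor. The 3 control hearts were Nkx2-5+/+,Casz1f/+ and had no Cre. The 3 mutant hearts were Nkx2-5Cre/+,Casz1f/f, with Cre recombinase at 1 allele of the cardiac homeobox gene Nkx2-5. The labels call the 3 samples of each genotype biological replicates, and each heart was taken and extracted individually. The comparison asks which genes differ in the heart when Casz1 is mutated. Cre acts only in cells with a history of Nkx2-5 expression, the whole heart was sequenced, and the genotypes differ at the Nkx2-5 locus as well as at Casz1.

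Complex I (NADH dehydrogenase) and complex II (succinate dehydrogenase, also an enzyme of the citric acid cycle) pass electrons to ubiquinone. Complex III passes them on to cytochrome c, complex IV (cytochrome c oxidase) passes them to oxygen, and complex V (ATP synthase) uses the proton gradient built by complexes I, III and IV. Complexes I, III, IV and V combine nuclear subunits with others encoded in mitochondrial DNA, while all subunits of complex II are nuclear. The embryonic heart relies largely on glycolysis at midgestation and matures its respiratory chain as development proceeds.

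Expression was given as FPKM, fragment counts scaled by transcript length and library size, with 1 pooled value for each genotype and none for single hearts. All FPKM values and tests given here are those of the authors' deposited table; the standard error (SE) and 95% interval of a log2 fold change (mutant over control) are those implied by its test statistic. Neither the depth of a library nor how far single hearts differed is known from these values. The targeted gene Casz1 stood in the authors' deposited table at 6.61 FPKM in controls and 4.68 FPKM in mutants (log2 -0.50, q = 1.00), and Nkx2-5 read 143.0 and 82.9 FPKM (log2 -0.79, q = 0.536). Casz1 mRNA was thus lower in the pooled mutants without passing the test, and a whole-gene value also counts transcript outside the floxed part. Cardiomyocyte markers were abundant: 12 tested markers of 14 summed to 24039 FPKM in controls and 23408 FPKM in mutants, while Myh6 and Myh7 were listed at 0 with a status for too many fragments. The sums hide differences of opposite sign, as 10 of the 12 were lower in mutants and 2 higher. Myl7 read 5080 FPKM in controls and 7496 FPKM in mutants, Myl2 read 5549 and 3942 FPKM and Nppa read 1755 and 888 FPKM, none passing the test.

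Promoters of many subunit genes hold sites for nuclear respiratory factor 1 (NRF1), the GA-binding protein of the ETS family, YY1 and oestrogen-related receptors, so promoter windows from RefSeq (GRCm38.p6, the assembly of mm10; 250 bases before to 50 after each start site) were searched for 4 motifs on both strands. Windows were found for 39 of the 50 genes. The NRF1 motif (GCGC, any 1 base, then TGCGC) was in 12 of the 39 (30.8%), against 7.17% of 17491 protein-coding genes and 15.3% of the 1167 genes with a window and 50 FPKM or more in each genotype. The ETS motif CCGGAAGT was in 5 of 39 (12.8%), against 5.69% of all genes and 12.4% of the expressed ones, a share close to that of the subunit genes. The YY1 motif AAGATGGC was in 6 of 39 (15.4%, against 3.57% and 7.03%), and the receptor motif TCAAGGTCA in 1 of 39, Sdhd (against 0.377% and 0.428%). At least 1 of the 4 motifs was in 21 windows. No motif contains another, though the ends of neighbouring matches can share letters, and a match describes letters, not binding.

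Stretches of 60 bases around the NRF1 match are shown for 4 complexes, to let a reader see the sequence that these genes share. For each complex the gene with the highest mean FPKM was taken among those with 1 listed start site and a match wholly before it. They are written 5′ to 3′ on the gene's strand, which is the minus strand for each. Capitals mark the match, which reads as the motif itself in Ndufs6 and as its reverse complement (GCGCA, any 1 base, then GCGC) in Sdhd, Cox6a1 and Atp5h.
Ndufs6 (complex I), chr13:73328483-73328542: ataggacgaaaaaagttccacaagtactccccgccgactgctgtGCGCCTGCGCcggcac
Sdhd (complex II), chr9:50603894-50603953: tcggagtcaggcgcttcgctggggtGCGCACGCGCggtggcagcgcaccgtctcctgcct
Cox6a1 (complex IV), chr5:115349041-115349100: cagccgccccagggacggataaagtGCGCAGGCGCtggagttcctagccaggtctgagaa
Atp5h (complex V), chr11:115420026-115420085: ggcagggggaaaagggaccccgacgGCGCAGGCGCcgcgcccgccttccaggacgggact
The match ends 6 bases before the start site in Ndufs6 and 131 bases before it in Atp5h, within a range that the searched window set. Among tested genes, the 12 with the NRF1 motif had a median log2 fold change of -0.019 in the authors' deposited table, and the 25 without it had a median of 0.0013. Nrf1 mRNA itself read 12.9 FPKM in controls and 13.2 FPKM in mutants.

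The subunit genes were strongly expressed in both genotypes. In the authors' deposited table the 48 tested genes ranged from 62.2 FPKM (Ndufs4) to 1426 FPKM (Atp5b) in control hearts, with a median of 273 FPKM, and 46 of them were among the 1000 tested entries with the highest mean FPKM. Together they held 3.37% of all listed FPKM in controls and 3.26% in mutants. Entries with too many fragments, such as Myh6, Myh7 and several globin genes, count as 0 in these totals, so the shares are too high. Acta2 counts in the control total only (867 FPKM), so the totals of the genotypes are not fully matched. FPKM is scaled by length, so levels can be compared between genes, though short transcripts are measured less surely on this scale.

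**Figure D1:**
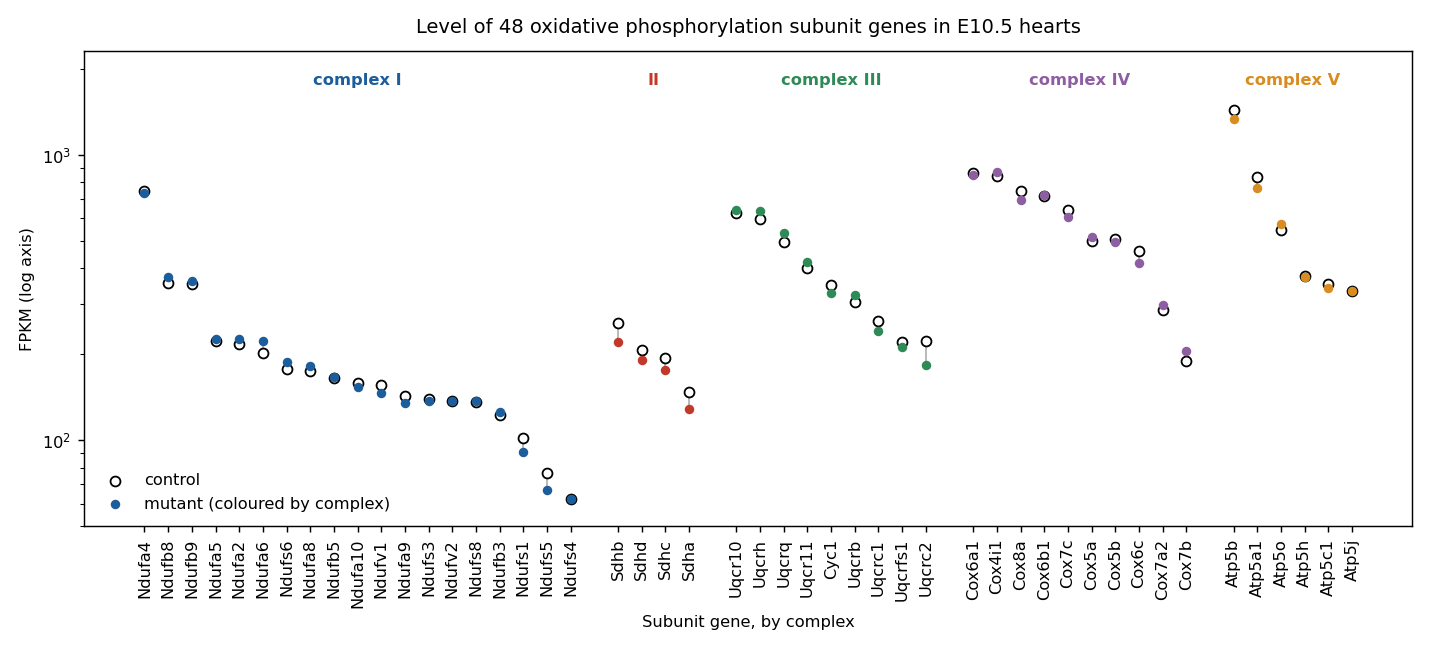
FPKM (log axis) of the 48 tested subunit genes, ordered by level within each complex; open circles are control hearts and filled circles mutant hearts, 1 pooled value each. The 2 circles of a gene nearly coincide for most genes. All 4 genes of complex II have the mutant value below the control value, as do the 4 core and redox genes of complex III and Atp5a1, Atp5b and Atp5c1 of complex V.

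No subunit gene passed the test for a difference between the genotypes. By Cuffdiff's q under 0.05, 0 of 48 rose and 0 fell in the authors' deposited table, against 0.422% of all tested entries (0.305% higher and 0.117% lower in mutants), and 0 of 48 had an unadjusted p under 0.05 (3.17% of all tested entries). Log2 fold changes ran from -0.27 (Uqcrc2) to 0.14 (Ndufa6), with a median of -0.0082. Values lay below 0 for 25 genes and above 0 for 23, which is 52.1% below 0, beside 54.7% of all 15301 entries with a finite fold and a median of -0.017 there. Among the 1553 entries with at least 50 FPKM in both genotypes, a set closer in level, 38.8% lay below 0 and the median was 0.029. Of these 1553 entries 0 rose and 2 fell by Cuffdiff's q under 0.05, and 14 had an unadjusted p under 0.05. Calls were thus rare at this level in general, and their absence is not particular to the subunit genes.

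How small a change the table could show is given by the intervals. The median SE of the 48 genes was 0.316, and for 46 of them the whole 95% interval lay within a 2-fold change in either direction. For the other 2, Atp5a1 and Atp5b, it reached -1.01 and -1.06. The smallest fold that was called among all genes was 2.29, so a change of the size of the differences listed here was below what the authors' test calls. The result therefore does not show that levels were equal.

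**Figure D2:**
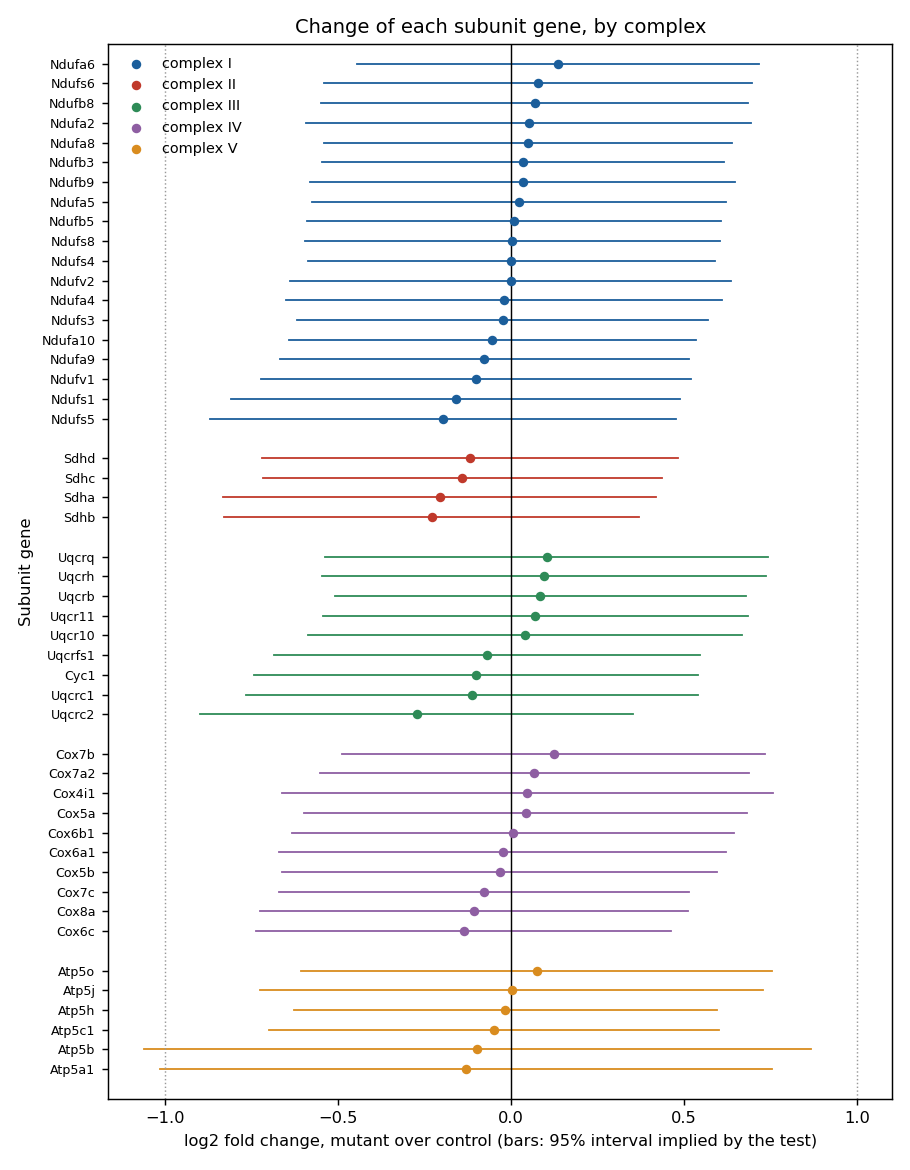
Log2 fold change (mutant over control) of each tested subunit gene, sorted within its complex; bars are 95% intervals implied by the authors' test statistic and dotted lines mark a 2-fold change. Every interval includes 0, and points run from -0.27 for Uqcrc2 to 0.14 for Ndufa6.

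Complex I genes lay on both sides of 0. Of 19 tested genes, 8 were below 0 and 11 above, with a median of 0.0044 and summed levels of 3846 FPKM in controls and 3868 FPKM in mutants. The core subunits that carry the flavin and the iron-sulfur clusters came first. Ndufv1, the flavin and NADH binding subunit, read 156 and 146 FPKM in controls and mutants (log2 -0.10, SE 0.317). Ndufv2, its iron-sulfur partner, read 137.5 FPKM in both. Ndufs1, the largest subunit of the electron input module, read 102 and 91.2 FPKM (log2 -0.16, SE 0.330). Of the core subunits of the ubiquinone side, Ndufs3 read 139 and 137 FPKM and Ndufs8 read 136 and 137 FPKM. None of these 5 differed beyond its interval, and 4 of the 5 values were below 0.

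The accessory subunits of complex I, which stabilise the enzyme and assist its assembly, were split. Of 14 tested accessory genes 4 lay below 0 and 10 above, with a median of 0.029. Ndufa6 had the highest value, at 203 FPKM in controls and 223 FPKM in mutants (log2 0.14, SE 0.296, unadjusted p = 0.645 in the authors' deposited table), and Ndufs6 followed at 177 and 187 FPKM. Ndufs5 had the lowest, at 76.6 and 67.0 FPKM (log2 -0.19, SE 0.344, unadjusted p = 0.571 in the authors' deposited table). Ndufs4, whose loss in mice causes a mitochondrial encephalopathy, was the least abundant of the tested genes on the fixed list, at 62.2 FPKM in both genotypes.

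Further accessory genes lay between these. Ndufb8 read 356 and 373 FPKM, Ndufb9 read 352 and 360.0 FPKM, Ndufa2 read 218 and 226 FPKM and Ndufa8 read 175 and 181 FPKM in controls and mutants, each a log2 difference between 0.034 and 0.069. Ndufa5, Ndufb3 and Ndufb5 had log2 values of 0.023, 0.035 and 0.010. Below 0 were Ndufa9 (log2 -0.076), which lies at the ubiquinone site, and Ndufa10 (log2 -0.053). Ndufa4, named as a complex I gene but now regarded as a subunit of complex IV, stood far above the others at 745 and 735 FPKM. The counts, medians and sums given for complex I and its accessory genes include Ndufa4.

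All 4 genes of complex II had lower values in the mutant hearts, and none passed the test. Sdha, the flavoprotein that oxidises succinate, read 148 FPKM in controls and 128 FPKM in mutants (log2 -0.21, SE 0.319, 95% interval -0.83 to 0.42). Sdhb, the iron-sulfur subunit, read 258 and 219.9 FPKM (log2 -0.23, SE 0.306, 95% interval -0.83 to 0.37). The membrane anchors Sdhc and Sdhd read 194 and 176 FPKM (log2 -0.14) and 207 and 190.4 FPKM (log2 -0.12). Unadjusted p in the authors' deposited table was 0.455 for Sdhb, 0.520 for Sdha, 0.635 for Sdhc and higher for Sdhd. The pooled values of the mutants were lower by 14.7% (Sdhb), 13.3% (Sdha), 9.22% (Sdhc) and 7.86% (Sdhd), which is within the error of each gene. Summed over the 4 genes, the level was 806 FPKM in controls and 714 FPKM in mutants, and the median log2 fold change was -0.17. Sdhb lies on chromosome 4 from 140961271 to 140979198 (mm10), 7.83 Mb from Casz1, while Sdhc lies on chromosome 1, Sdhd on chromosome 9 and Sdha on chromosome 13. The other listed genes on chromosome 4 were Ndufs5 (25.1 Mb from Casz1, log2 -0.19) and Uqcrh (32.7 Mb, log2 0.096). The part of position in these values was not tested. Whether complex II differs from the other complexes was not tested.

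Complex III genes divided by the kind of subunit, a split noticed after the values were seen. The 4 genes of the large core and redox subunits were below 0 in the mutant hearts. Uqcrc2, a core protein, had the lowest value of all 48 genes, at 222 FPKM in controls and 184 FPKM in mutants (log2 -0.27, SE 0.319, unadjusted p = 0.394 in the authors' deposited table), and lies on chromosome 7 from 120635189 to 120659523 (mm10). Its partner Uqcrc1 read 260.4 and 241 FPKM (log2 -0.11), the cytochrome c1 gene Cyc1 read 351 and 327 FPKM (log2 -0.10) and the Rieske iron-sulfur gene Uqcrfs1 read 221 and 211 FPKM (log2 -0.068). The 5 genes of small accessory subunits were all above 0, from 0.041 for Uqcr10 to 0.10 for Uqcrq. Uqcrh, the hinge protein near cytochrome c1, read 594 and 634 FPKM, Uqcrq read 494 and 531 FPKM and Uqcrb read 305 and 323 FPKM. Uqcr10 and Uqcr11 read 623 and 641 FPKM and 401 and 421 FPKM. The median of the 9 genes was 0.041, and each value lay within its own interval of 0.

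Complex IV held the highest median level of the 5 complexes, 571 FPKM in controls and 559.7 FPKM in mutants, and its 10 genes were evenly divided, 5 below 0 and 5 above. All 10 are nuclear subunits that surround the catalytic core. Cox6a1 read 864 and 850 FPKM, Cox4i1, a regulatory subunit that binds ATP, read 843 and 871 FPKM, and Cox6b1 read 716 and 720 FPKM in controls and mutants. Cox5a and Cox5b, which sit on the matrix side of the enzyme, read 499 and 514 FPKM and 504 and 493 FPKM. The lowest value belonged to Cox6c, at 459 and 417 FPKM (log2 -0.14, SE 0.306), followed by Cox8a, at 745 and 692 FPKM (log2 -0.11, SE 0.316), and Cox7c, at 639 and 605 FPKM (log2 -0.077). The X-linked gene Cox7b had the highest, at 189 and 206 FPKM (log2 0.12, SE 0.312), and Cox7a2 read 285 and 298 FPKM (log2 0.068).

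Complex V genes included the most abundant of the list. In the catalytic F1 part, Atp5b, the beta subunit that makes ATP, read 1426 FPKM in controls and 1334 FPKM in mutants (log2 -0.097, SE 0.492), and Atp5a1, the alpha subunit, read 835 and 764 FPKM (log2 -0.13, SE 0.452). Atp5c1, the gamma subunit of the rotor, read 353 and 341 FPKM (log2 -0.048, SE 0.332). The peripheral stalk genes lay near or above 0: Atp5h read 376 and 372 FPKM, Atp5j read 332 FPKM in both and Atp5o read 543 and 572 FPKM (log2 0.075, SE 0.347). Over the 6 tested genes the median was -0.032. Atp5j shared its locus in the table with Gabpa, the gene of a GA-binding protein subunit on the same stretch of chromosome 16, and Gabpa had a log2 fold change of -0.086 (SE 0.617).

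The 2 genes without a usable value were Ndufs7, a core subunit of complex I, and Atp5d, the delta subunit of complex V. Both fell in 1 merged locus on chromosome 10, from 79697305 to 80369637 (mm10), in which all 47 entries were listed at 0 with the status for too many fragments. These zeros are not levels. Of the tested genes, 5 shared a locus with 1 other entry (Ndufa2, Ndufs1, Uqcrc2, Atp5b and Atp5j), and 5 of the 50 have a pseudogene named after them in the RefSeq table (Ndufs5, Uqcrh, Cox5b, Cox7c and Atp5c1). The sources used here do not give how reads that fit both were assigned.

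Across complexes, values varied with transcript length, taken as the median length of the GENCODE transcripts that carry an entry's RefSeq identifier. Of 27 subunit genes with transcripts under 1000 bases, 19 lay above 0 (median log2 fold change 0.035), while of 21 longer ones 17 lay below 0 (median -0.097). At this cut the same direction held among all tested entries with at least 10 FPKM in both genotypes. There 710 short ones had a median of 0.050 with 33.8% below 0, and 5379 longer ones a median of -0.010 with 54.2% below 0. In finer length bins the direction did not hold just above 1000 bases. The bin just above that cut had 783 entries with a median of 0.032 and 35.6% below 0. Of its 9 subunit genes 7 lay below 0. The next had 897 entries with a median of 0.012 and 45.5% below 0, and 5 of its 7 subunit genes lay below 0. Medians of entries were below 0 only in the longer bins (-0.013 and -0.030), which held 4 and 1 subunit genes. Pearson's r between log2 length and log2 fold change was -0.54 over the 48 genes (Spearman's rho -0.47), and -0.10 (rho -0.24) over 6089 entries. These correlations are across genes that share the same pooled libraries and normalisation, and are given as a description. Each gene was then set against the median of entries of like transcript length, a step chosen after the data were seen. In complex III the medians subtracted were all above 0 (0.012 to 0.057), so the step could only lower each value. The 4 core and redox genes, below 0 before it, then ran from -0.28 for Uqcrc2 to -0.10 for Uqcrfs1. The small subunit genes then lay between -0.016 for Uqcr10 and 0.091 for Uqcrq. By this step the median of complex III went from 0.041 to -0.016, that of complex I from 0.0044 to -0.024, that of complex IV from -0.0081 to -0.065 and that of complex V from -0.032 to -0.076. The median of complex II was -0.17 with and without it, as the medians subtracted there lay only between -0.030 and 0.032.

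**Figure D3:**
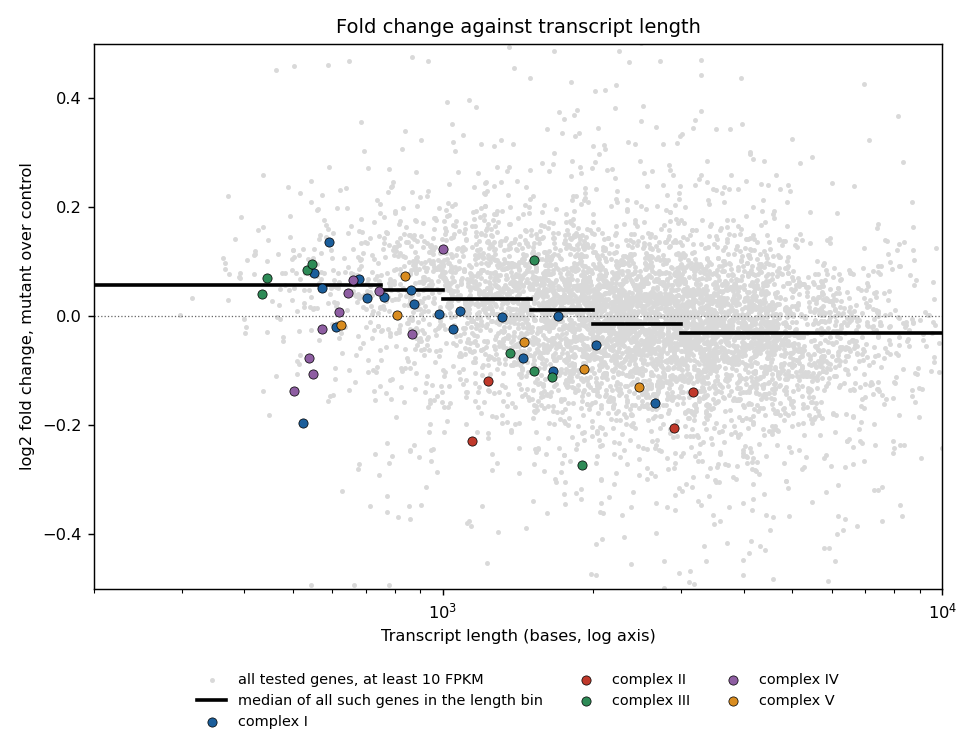
Log2 fold change (mutant over control) against transcript length in bases (log axis); grey points are all tested genes at 10 FPKM or more in each genotype, coloured points the subunit genes, and black bars the median of the grey points in each length bin. The bars step from 0.057 for the shortest transcripts to -0.030 for the longest, and 128 grey points lie beyond the plotted range of fold change.

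Other subunit genes of complexes I, IV and V gave no call. Of 34 tested in the authors' deposited table, 0 rose and 0 fell, 10 lay below 0 and 24 above, and the median was 0.038. Atp5g3, a copy of the ATP synthase c-ring gene, read 1383 and 1427 FPKM, and Atp5e read 705 and 763 FPKM in controls and mutants. Cox8b, the isoform of heart and skeletal muscle, was the 1 gene with an unadjusted p under 0.05, at 19.1 FPKM in controls and 8.15 FPKM in mutants (log2 -1.23, SE 0.520, p = 0.0183, q = 0.915 in the authors' deposited table). Cox4i2, the isoform linked to low oxygen, had the highest value, at 8.23 and 11.6 FPKM (log2 0.50). Within isoform pairs, Cox6a2 made up 19.6% of the FPKM of Cox6a1 and Cox6a2 in control and 17.1% in mutant hearts, and Cox7a1 made up 37.9% of its pair with Cox7a2 in both. Cox8b made up 2.50% and 1.16% of its pair with Cox8a, Cox4i2 made up 0.966% and 1.32% of its pair with Cox4i1, and Cox6b2 made up 3.62% and 3.80% of its pair with Cox6b1, in controls and mutants. The 13 subunits encoded in mitochondrial DNA were not analysed here.

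Assembly factors and upstream enzymes also held 0 calls. Of 43 tested assembly factors, 23 lay below 0 and 20 above (median -0.011), with 0 at an unadjusted p under 0.05 in the authors' deposited table. Cox17, a copper carrier for complex IV, read 286 and 281 FPKM and Uqcc2, a factor for complex III, read 208 and 226 FPKM. Pet100 had the highest log2 value (0.32) and Ndufaf7 the lowest (-0.25). In the list of cytochrome c and citric acid cycle genes, 11 of 14 were below 0, with a median of -0.079. Mdh2 read 499 and 476 FPKM, citrate synthase Cs read 202 and 191 FPKM, Idh3a was highest (log2 0.059) and Suclg2 lowest (log2 -0.21). Of 13 mitochondrial carrier, pore and import genes 5 were below 0 (median 0.022), from Hspd1 (log2 -0.087) to Vdac3 (log2 0.11). Slc25a4 and Slc25a5, which exchange ADP and ATP, read 1324 and 1310.4 FPKM and 501 and 508 FPKM in controls and mutants.

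Genes that regulate the respiratory chain were expressed at lower levels and were not called. Of 13 tested, 9 lay below 0 (median -0.064), and 0 had an unadjusted p under 0.05 in the authors' deposited table. Esrra, an orphan receptor that activates many of these genes, read 27.6 and 26.4 FPKM, Yy1 read 32.0 and 33.2 FPKM and Tfam, the packaging factor of mitochondrial DNA, read 15.4 and 15.8 FPKM in controls and mutants. The coactivator genes Ppargc1a and Ppargc1b stood at 5.99 and 6.81 FPKM (log2 0.18) and 3.09 and 2.02 FPKM (log2 -0.61, SE 0.365; Cuffdiff's unadjusted p = 0.0955 in the authors' deposited table). Polrmt lay in the same merged locus as Ndufs7 and had no usable value.

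**Figure D4:**
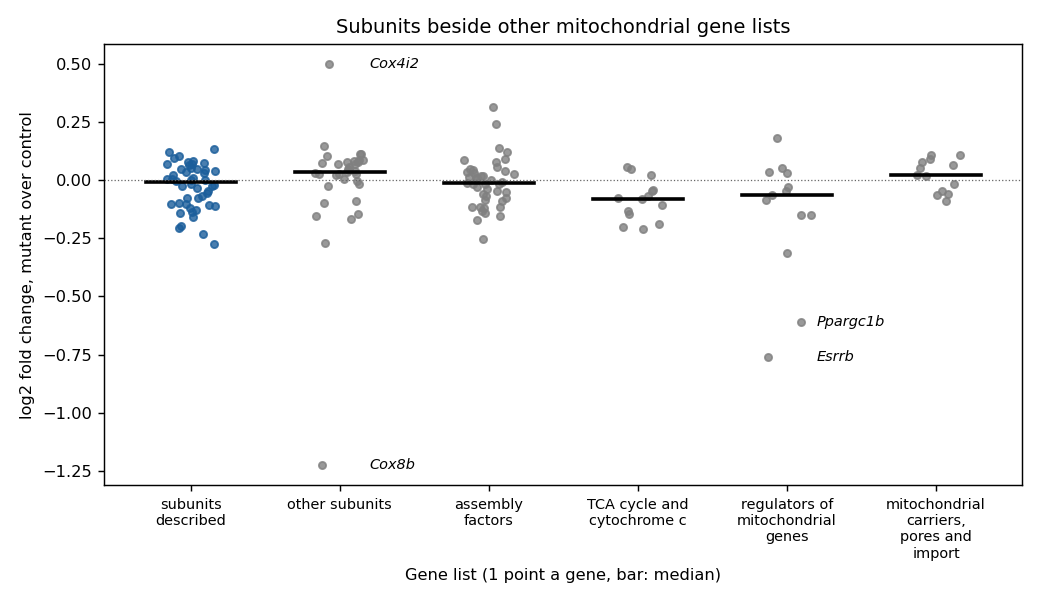
Log2 fold change (mutant over control) of each tested gene in the 48 subunit genes and in 5 other mitochondrial lists; bars are list medians. Medians lie between -0.079 and 0.038, and Cox8b at -1.23 stands farthest from 0.

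Some markers of other cell types passed the test, mainly those of foregut epithelium. All 9 foregut and pharyngeal epithelial markers were above 0 and 6 rose (Epcam, Cdh1, Shh, Foxa1, Cldn6 and Pax1) by the authors' q, with a sum of 4.11 FPKM in controls and 20.98 FPKM in mutants. Of 5 tested smooth muscle markers 2 rose (Actg2 and Lmod1), and the sums of 471 and 885 FPKM were mostly Tagln (333 and 767 FPKM, not called). Cnn1 read 132 and 96.0 FPKM, and Acta2, listed at 867 FPKM in controls and at 0 in mutants with the status for too many fragments, is not in the sums. All 10 endothelial and endocardial markers were below 0, with sums of 305 and 266 FPKM, as were all 7 tested macrophage markers, with sums of 26.5 and 9.75 FPKM. Most of that difference was Lyz2, which fell from 16.9 to 1.91 FPKM, while the other 6 were not called. Cardiomyocyte markers had a median of -0.21 and 1 of 12 fell (Pln, 129 to 56.2 FPKM), while epicardial, hepatocyte and erythroid markers held 0 calls, with medians of -0.085, -0.29 and 0.14. Of 8 erythroid markers 4, all globin genes, were listed at 0 for too many fragments. Of the 4 tested, 3 were above 0 and Hbb-b1 was below it (271 and 217 FPKM), and the sums were 458 FPKM in controls and 427 FPKM in mutants. In whole hearts, fewer cells of a type and less RNA per cell cannot be told apart, and the part of these markers in the subunit values was not tested.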

How the data were processed

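RNA-seq of 6 mouse hearts (3 control, 3 mutant) was analysed from 1 Cuffdiff table. Per the submitters' processing notes, Cuffdiff, Cufflinks 2.1.1, SAMtools 0.1.19.0, TopHat2 2.0.8 with Bowtie2 2.1.0.0, FastQC 0.10.1 and the mm10 build were named. FPKM values were computed and pooled per genotype by the authors, per the file headers; depth per heart is unknown, so no counting interval is given. The log2 fold change, test statistic, p-value and q-value were deposited by the authors for 15387 tested entries; the sources used here do not give the library normalisation.

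From these, SE was computed as the log2 fold change over the test statistic; normal tails of that statistic gave the deposited p within 2.8e-06. The p-values rest on Cuffdiff's model of variation, and the sources used here do not give how the spread between hearts entered it. The call was the authors' q under 0.05. RefSeq and GENCODE M21 tables named 23125 entries. Genes, other lists and alternatives were chosen with earlier results of these data known. Named genes were, per complex, the extremes of fold change and FPKM, and, per other list, calls, extremes and the 2 highest FPKM; other subunit genes are members of the list. Scripts were tested on simulated data. Python 3.11.15, numpy 2.4.6, pandas 2.3.3, scipy 1.17.1 and matplotlib 3.10.9 were used.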

Additional observations from a re-analysis of the deposited data

How the results depend on the processing

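With a q threshold of 0.1, an unadjusted p under 0.05 (3.17% of all tested entries) or q recomputed over entries with at least 1 FPKM, 0 of the 48 subunit genes were called. Their lowest unadjusted p by Cuffdiff was 0.394 (Uqcrc2), so none of these settings could have called 1. For the other mitochondrial lists these settings gave 0, 1 (Cox8b) and 0 calls. The median log2 fold change of the subunit genes was -0.0082 with pseudocounts of 0.1 and 1 FPKM, 0.0088 when centred on entries with at least 1 FPKM, -0.0039 when centred on those with at least 10 FPKM and -0.048 against entries of like transcript length, so its sign depended on the centring. Complex II kept a median between -0.17 and -0.16 under each of these settings, but they could hardly move it. Its genes stood at 128 FPKM or more, far above the pseudocounts. The centring medians were -0.017 and -0.0043, and those of like length lay between -0.030 and 0.032. Against entries of like length the medians of complex I (0.0044 to -0.024) and complex III (0.041 to -0.016) turned below 0, and that of complex IV (-0.0081) turned to 0.0089 when centred on entries with at least 1 FPKM; complex V stayed below 0. No paired analysis was possible because the table holds no value per heart, and leaving out each replicate was not run for the same reason. Pooled values do not show which hearts carry a difference.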

Other observations

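All 3 assembly factors of complex V lay below 0. Atpaf1, which binds the beta subunit, had a log2 fold change of -0.15 in the authors' deposited table, Atpaf2, which binds the alpha subunit, of -0.13 and Tmem70 of -0.068. None was called, and the group was singled out after their values were seen. The assembly factors of complex II showed no such run: of 4 tested, 2 lay below 0 and 2 above, with Sdhaf1, which helps to insert iron-sulfur clusters, at 27.0 and 26.7 FPKM in control and mutant hearts. Among regulators, Esrrb had the lowest log2 value (-0.76, SE 0.451; Cuffdiff's unadjusted p = 0.0912 in the authors' deposited table), at 1.66 and 0.981 FPKM, and Esrrg, a related receptor of heart muscle, read 8.90 and 7.16 FPKM (log2 -0.31).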
